A study of Mus musculus with 10 samples.

Results

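The 8 genes Ankrd1, Ankrd2, Ankrd23, Csrp3, Fhl1, Fhl2, Smpx and Lmcd1 were taken by symbol from the 23337 genes counted in right atria of 10 mice, and all 8 had enough reads to be tested among 13084 genes. They encode ankyrin repeat, LIM domain and small muscle proteins of the stretch and stress response of striated muscle. The series was labelled as comparing right atria of control mice and of mice with removal of TBX5, a T-box transcription factor of the atrium and conduction system. RNA-seq counts came from 4 mice with the genotype label Control (named M1, M2, F1 and F2) and 6 mice labelled as having TBX5 removed by R26Cre (F1, F2, F3, M1, M2 and M3), called Tbx5 mutant here.

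All mice had a mixed strain label and an age label of 8 to 10 weeks, although the protocol text gave 6 to 8 weeks. Exon 3 of Tbx5 was to be excised by a tamoxifen-inducible Cre recombinase under the R26 promoter, which is active in all cell types, so that the design did not limit excision to cardiomyocytes. The protocol gave 0.167 mg of tamoxifen per day for 3 days by injection into the abdomen, with the atria taken 1 week later. The labels did not say which alleles the control mice carried, and the study's text gave R26CreERt2 for the control mice of its other libraries and Tbx5 fl/fl;R26CreERt2 for the mutants. Each library was taken as 1 mouse from its numbered label.

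Libraries held between 5703775 and 7095141 counts. Reads of Rn45s, the ribosomal RNA precursor, made up 38.9% of the library of mutant mouse M3 and at most 1.49% of each other library, and without them M3 had 3484550 counts. Tbx5 itself was at 205 ± 17.8 CPM (reads of a gene scaled to a common TMM library size; SD, n = 4) in control mice and 394 ± 83.3 CPM (SD, n = 6) in mutant mice, a log2 fold change of 0.94 (SE 0.15, edgeR quasi-likelihood test, adjusted p = 0.000495). The targeted gene was thus higher in the mice labelled mutant, and because a count over the whole gene includes reads outside exon 3, it does not check the excision. The 2 controls labelled M had 10149 and 7850 reads of Xist and 0 of Ddx3y, and the 2 controls labelled F had 5 and 14 reads of Xist and 1319 and 1124 of Ddx3y, opposite to their labels, whereas the mutant mice matched theirs. All directions below are relative to the genotype labels, and sexes are given as labelled.

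Ankrd1, Ankrd2 and Ankrd23 form the muscle ankyrin repeat protein family, whose members bind the elastic I-band region of titin and are also found in the nucleus, where they act on transcription. Csrp3 (muscle LIM protein) sits at the Z-disc, and Fhl1 and Fhl2 are LIM-only proteins that bind titin springs. Smpx is a small protein of costameres, and Lmcd1 is a LIM protein that acts with GATA6 and calcineurin. Many of these genes are known to be induced when heart muscle is stretched or loaded.

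Sequence upstream of each start site was taken from RefSeq (build GRCm38.p6, 250 bases before the annotated start), which held 1 or 2 windows for each of the 8 genes. It is shown here because TBX5, TEAD, GATA and SRF factors are known to bind the elements searched: the T-box element AGGTGT, the MCAT element CATTCC, its longer TEAD form CATTCCA that contains it, the GATA element AGATAA and the CArG box, each on both strands. Among 32851 RefSeq windows of this length, 11.8% held the T-box element, 12.6% the MCAT element, 3.69% the TEAD form, 9.99% the GATA element and 1.47% a CArG box. The Ankrd1 window held 2 MCAT matches, one of them within the TEAD form at -124 to -118 from the start, and a GATA match at -47 to -42. All 250 bases of that window lie in an exon of at least one GENCODE M21 transcript, so only 30 bases around each match are printed, with the match in capitals and the sequence on the gene's strand.
Ankrd1 MCAT, chr19:36120037-36120066, minus strand: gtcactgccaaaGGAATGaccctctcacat
Ankrd1 TEAD form, chr19:36119950-36119979, minus strand: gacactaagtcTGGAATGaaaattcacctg
Ankrd1 GATA, chr19:36119874-36119903, minus strand: caggctggaagaTTATCTcacccagcccta

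The only T-box match among all windows of the 8 genes lay in Csrp3, in the window before its inner start site, at -164 to -159. The window before the outer Csrp3 start held none of the elements. The Lmcd1 window held a CArG box at -215 to -206 and nothing else. These genes differed between the groups (below), and the 3 windows are printed whole with the matches in capitals.
Csrp3 outer start, chr7:48848052-48848301, minus strand: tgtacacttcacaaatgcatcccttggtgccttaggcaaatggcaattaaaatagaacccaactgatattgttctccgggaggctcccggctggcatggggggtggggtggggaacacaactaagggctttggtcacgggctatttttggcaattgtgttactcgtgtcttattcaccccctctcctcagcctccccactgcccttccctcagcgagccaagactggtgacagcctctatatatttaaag
Csrp3 inner start, chr7:48843672-48843921, minus strand: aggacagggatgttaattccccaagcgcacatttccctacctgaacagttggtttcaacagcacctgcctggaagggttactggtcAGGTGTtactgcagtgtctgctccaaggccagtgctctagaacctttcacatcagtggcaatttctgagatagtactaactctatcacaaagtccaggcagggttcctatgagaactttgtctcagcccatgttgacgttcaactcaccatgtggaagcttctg
Lmcd1, chr6:112273508-112273757, plus strand: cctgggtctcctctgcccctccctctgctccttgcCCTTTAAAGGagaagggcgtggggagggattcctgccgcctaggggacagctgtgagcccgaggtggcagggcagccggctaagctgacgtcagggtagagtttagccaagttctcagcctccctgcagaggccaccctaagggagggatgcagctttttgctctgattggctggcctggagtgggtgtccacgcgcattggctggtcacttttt

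Fhl2, which was not called, held a CArG box in both of its windows, at -96 to -87 and at -31 to -22, and Fhl1 held one in one window at -102 to -93. Matches of GATA were found in Smpx (2 matches), in 1 window of Ankrd23 and in 1 window of Fhl2, and of MCAT in the other window of Ankrd23. Ankrd2 held none. CArG boxes were therefore present in a called gene and in genes that were not called. These are matches of letters in a fixed window and no measure of binding.
Fhl2 outer start, chr1:43196838-43196867, minus strand: catttagagaCCAAAAAAGGcttgcaggag
Fhl2 inner start, chr1:43163973-43164002, minus strand: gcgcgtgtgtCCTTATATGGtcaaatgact

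Of the 8 genes, 5 were called higher in the Tbx5 mutant atria (Ankrd1, Ankrd2, Ankrd23, Csrp3 and Lmcd1), 0 were called lower, and 3 (Fhl1, Fhl2 and Smpx) were not called. Over all 13084 genes tested, 15.7% were called, 8.5% higher and 7.16% lower. Ankrd2 passed the expression filter only through its reads in mutant mice, so it is left out of the counts to be read against these shares: of the other 7 genes, 4 were called higher and 0 lower. A gene was called when its edgeR quasi-likelihood p, adjusted by Benjamini-Hochberg over all genes tested, was under 0.05, its fold change was over 1.5 and its mean signal in the control mice was over 1. None of the 8 was lower at an unadjusted p under 0.05 (0 by edgeR) or by DESeq2 (0 called lower). The median log2 fold change was 1.02 over the other 7 genes and 1.05 with Ankrd2, against -0.0050 over all genes tested. In 4 of the 8 (Ankrd1, Ankrd23, Csrp3 and Lmcd1) every mutant mouse lay above every control mouse, which was so for 11.7% of all genes. In bulk tissue, more RNA per cell and more cells that express a gene cannot be told apart.

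**Figure D1:**
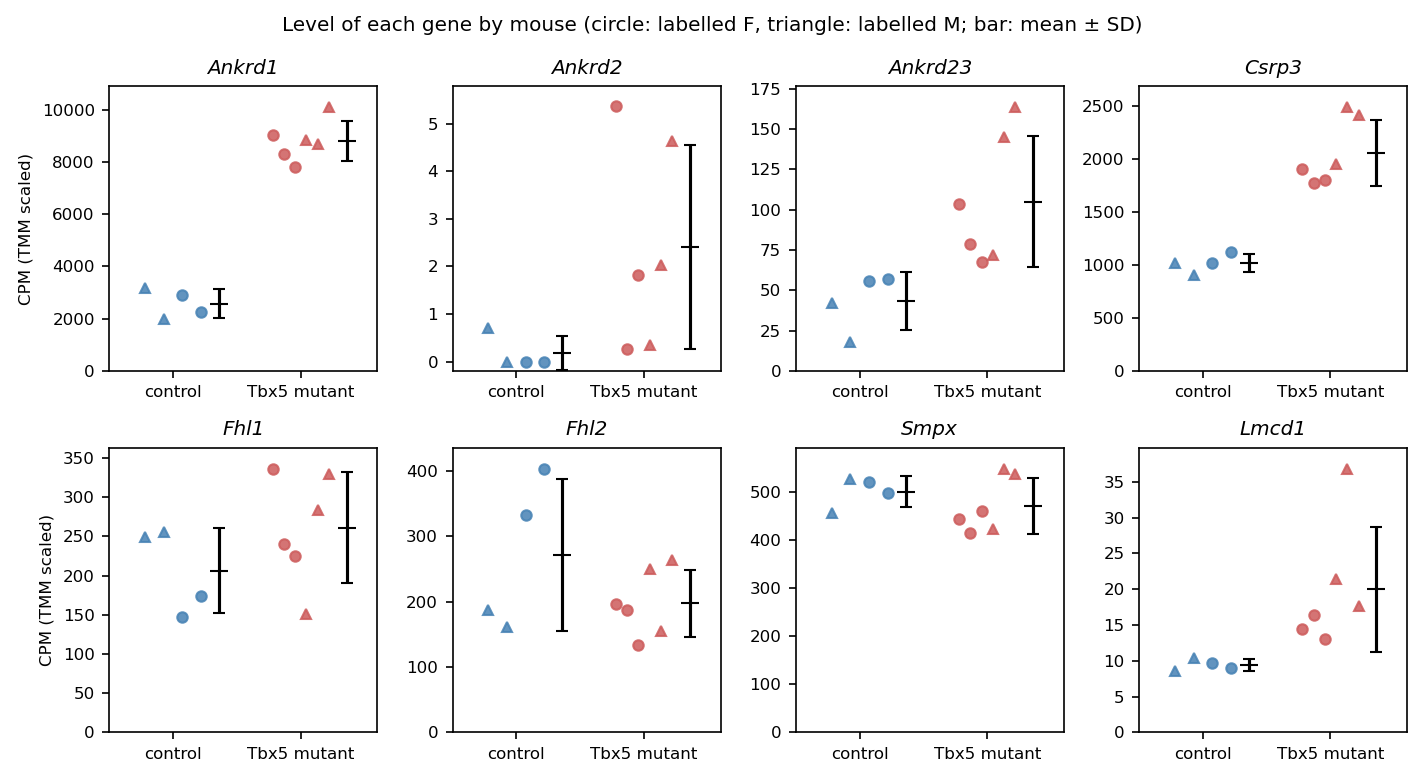
Level of each of the 8 genes in CPM (vertical axes, starting at or just below 0) in 4 control and 6 Tbx5 mutant mice, with 1 point per mouse and the mean ± SD beside each group. All mutant points lie above all control points for Ankrd1, Ankrd23, Csrp3 and Lmcd1, and the groups overlap for Ankrd2, Fhl1, Fhl2 and Smpx.

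Ankrd1, the cardiac ankyrin repeat protein of titin's spring region and the nucleus, rose 3.41-fold. Ankrd1 (ENSMUSG00000024803.9) lies on the minus strand of chromosome 19 from 36111961 to 36120099 in GENCODE M21 (GRCm38), and its longest transcript has 9 exons. Its level in the controls (M1, M2, F1 and F2) was 3163, 1988, 2913 and 2253 CPM. In the mutant mice F1, F2, F3, M1, M2 and M3 it was 9032, 8308, 7796, 8846, 8678 and 10099 CPM. The lowest mutant mouse stood far above the highest control mouse, and the mutant mice varied little among themselves, with a coefficient of variation of 8.82% against 21.3% in the controls. Means were 2579 ± 550 CPM (SD, n = 4) and 8793 ± 776 CPM (SD, n = 6). The log2 fold change was 1.77 (SE 0.16, edgeR adjusted p = 5.53e-06). The two-sided exact permutation test gave p = 0.00952, the smallest that 210 splits of 4 against 6 mice allow. Its p ranked 11 among the 1112 genes called higher, while its fold change ranked 190.

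Ankrd2, which is best known from slow skeletal muscle, was close to absent in the control atria. Ankrd2 (ENSMUSG00000025172.3) lies on the plus strand of chromosome 19 from 42036000 to 42045110. It had 5, 0, 0 and 0 reads in the controls (M1, M2, F1 and F2), so that all control reads came from 1 mouse. In the mutant mice F1, F2, F3, M1, M2 and M3 it had 34, 2, 13, 2, 14 and 17 reads. The mutant mice fell into 2 with hardly any reads (F2 and M1) and 4 with at least 13, and the groups overlapped because control mouse M1 had more reads than mutant mice F2 and M1. Pooled over mice, 82 reads against 5 gave a ratio of 11.8 after scaling for library size, with an exact 95% interval of 4.84 to 37.2 that covers counting error only. Levels were 0.179 ± 0.357 CPM (SD, n = 4) and 2.41 ± 2.14 CPM (SD, n = 6).

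The fitted log2 fold change of Ankrd2 was 3.48 (SE 1.04, edgeR adjusted p = 0.0214) and depends on the prior count added to near-empty libraries: it was 1.67 with a prior count of 5. The exact permutation test gave p = 0.0571. The call was lost when control mouse M2, F1 or F2 was left out (adjusted p = 0.0546, 0.0592 and 0.0580), and Ankrd2 no longer passed the expression filter when mutant mouse F1, F3, M2 or M3 was left out. Without control mouse M1, the remaining control mice had 0 reads and the fitted value was 6.87 (adjusted p = 0.0206). That value is no bound, and it would not be called if the control signal were averaged over those mice alone.

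Ankrd23, the third family member, rose 2.41-fold. Ankrd23 (ENSMUSG00000067653.12) lies on the minus strand of chromosome 1 from 36530188 to 36536883. In the controls (M1, M2, F1 and F2) its level was 42.1, 18.0, 55.8 and 56.7 CPM. In the mutant mice F1, F2, F3, M1, M2 and M3 it was 104, 78.6, 67.5, 72.0, 145 and 164 CPM. Mutant mice M2 and M3 stood highest and control mouse M2 lowest, and the gap between the highest control and the lowest mutant mouse was smaller than the SD within either group. Means were 43.2 ± 18.0 CPM (SD, n = 4) and 105 ± 40.6 CPM (SD, n = 6), with a log2 fold change of 1.27 (SE 0.31, edgeR adjusted p = 0.00789, exact permutation p = 0.00952). In GENCODE M21, 75.3% of the 47-base windows of Ankrd23 transcripts occur in transcripts of other genes, mainly the overlapping gene Gm42417, which shares 2109 exon bases on the same strand and is not among the counted genes. How such reads were assigned is not known, so the level of Ankrd23 is uncertain. The other 7 genes shared no such window.

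Csrp3, the muscle LIM protein that helps anchor titin's Z-disc complex and is needed for normal cardiac architecture, rose 2.02-fold. Csrp3 (ENSMUSG00000030470.15) lies on the minus strand of chromosome 7 from 48830398 to 48848033. The controls M1, M2, F1 and F2 had 1017, 905, 1018 and 1120 CPM. The mutant mice F1, F2, F3, M1, M2 and M3 had 1907, 1773, 1797, 1945, 2485 and 2415 CPM. Again mutant mice M2 and M3 stood highest, and the gap between the groups was wider than the SD within either. Means were 1015 ± 87.7 CPM (SD, n = 4) and 2053 ± 315 CPM (SD, n = 6). The log2 fold change was 1.02 (SE 0.13, edgeR adjusted p = 0.000102, exact permutation p = 0.00952).

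Its paralogs Csrp1 and Csrp2, LIM proteins better known from smooth muscle and vessels, were not called. Csrp1 was at 106 ± 12.4 CPM (SD, n = 4) in control and 155 ± 29.6 CPM (SD, n = 6) in mutant mice, with a log2 fold change of 0.55 (edgeR adjusted p = 0.0111) that was under the 1.5-fold threshold. Csrp2 was at 102 ± 12.0 and 78.6 ± 11.7 CPM, with a log2 fold change of -0.38 (edgeR adjusted p = 0.0239) that was also under it.

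Lmcd1, a LIM and cysteine-rich domain protein of the heart, rose 2.13-fold from a low level. Lmcd1 (ENSMUSG00000057604.9) lies on the plus strand of chromosome 6 from 112273758 to 112330425. Controls M1, M2, F1 and F2 were at 8.57, 10.4, 9.72 and 8.93 CPM. Mutant mice F1, F2, F3, M1, M2 and M3 were at 14.5, 16.4, 13.1, 21.4, 36.8 and 17.7 CPM. The control mice lay close together and mutant mouse M2 stood far above the other mutant mice. Means were 9.41 ± 0.827 CPM (SD, n = 4) and 20.0 ± 8.74 CPM (SD, n = 6), with a log2 fold change of 1.09 (SE 0.26, edgeR adjusted p = 0.00637, exact permutation p = 0.00952). The antisense gene 5031434C07Rik overlaps Lmcd1 in the annotation with 0 shared exon bases.

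Fhl1 and Fhl2, which bind neighbouring parts of the titin spring and link it to signalling and metabolic enzymes, were not called. Fhl1 (ENSMUSG00000023092.16) lies on the plus strand of chromosome X from 56731787 to 56793346. Its level in controls M1, M2, F1 and F2 was 249, 256, 147 and 174 CPM, and in mutant mice F1, F2, F3, M1, M2 and M3 it was 336, 240, 225, 151, 284 and 330 CPM. The mutant mouse M1 lay among the lowest of all mice and the groups overlapped. The log2 fold change was 0.34, with a 95% interval from -0.12 to 0.80 (edgeR adjusted p = 0.242, exact permutation p = 0.267).

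Fhl2 (ENSMUSG00000008136.14) lies on the minus strand of chromosome 1 from 43123074 to 43196984. Controls M1, M2, F1 and F2 had 188, 161, 333 and 403 CPM, and mutant mice F1, F2, F3, M1, M2 and M3 had 196, 187, 133, 250, 156 and 263 CPM. The 2 controls labelled F stood above all other mice, and the 2 controls labelled M lay within the range of the mutant mice. The log2 fold change was -0.46, with a 95% interval from -0.99 to 0.069 (edgeR adjusted p = 0.171, exact permutation p = 0.257).

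Other FHL genes had few reads. Fhl3, a family member best known from skeletal muscle, rose from 1.36 ± 0.542 CPM (SD, n = 4) to 4.63 ± 1.05 CPM (SD, n = 6). Its log2 fold change was 1.74 (edgeR adjusted p = 0.000474). The groups did not overlap, and 11.7% of all genes were higher without overlap. Fhl3 had 6, 6, 10 and 15 reads in the controls (M1, M2, F1 and F2), so that it passed the expression filter only through its reads in mutant mice. Fhl4 was at 2.87 ± 1.47 and 2.12 ± 0.661 CPM (edgeR adjusted p = 0.310). Fhl5 had 5 reads in all control mice and 3 in all mutant mice and was not tested.

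Smpx, a small X-linked muscle protein of the costamere, differed little between the groups. Smpx (ENSMUSG00000041476.12) lies on the plus strand of chromosome X from 157698910 to 157752591. Controls M1, M2, F1 and F2 had 456, 527, 522 and 498 CPM. Mutant mice F1, F2, F3, M1, M2 and M3 had 445, 414, 461, 424, 549 and 537 CPM. Within the mutant mice M2 and M3 were again highest, above all controls, while F1, F2 and M1 were below all controls. The log2 fold change was -0.087, with a 95% interval from -0.32 to 0.14 (edgeR adjusted p = 0.566, exact permutation p = 0.381). Once a trend of each library on transcript length was removed, it was -0.31 (adjusted p = 0.0130), still under the 1.5-fold threshold.

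**Figure D2:**
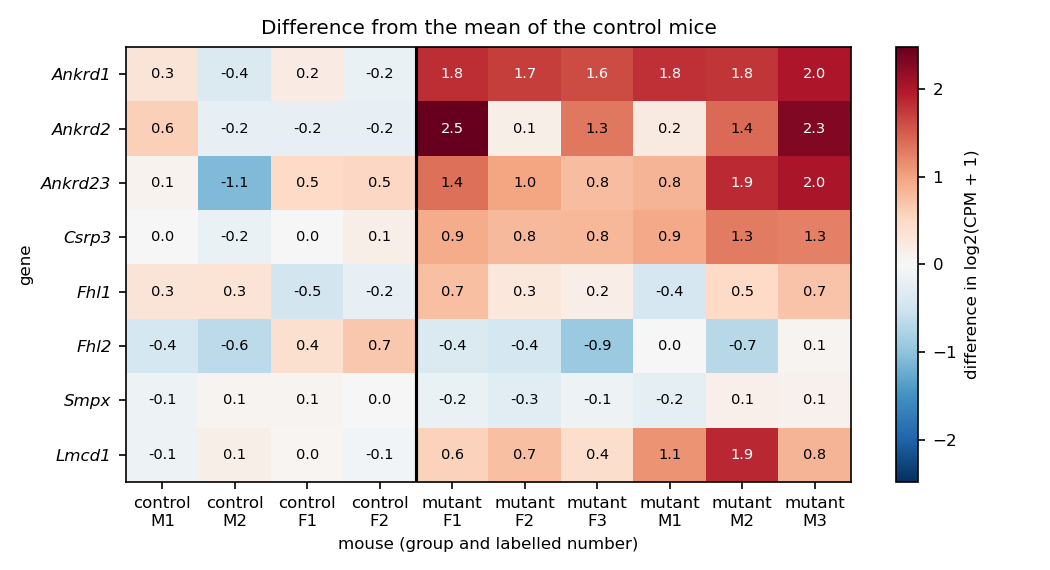
Difference of each mouse (columns) from the mean of the control mice for each gene (rows), in log2(CPM + 1), red for higher and blue for lower. The row of Ankrd1 is evenly high in all 6 mutant mice, the rows of Ankrd23 and Csrp3 are highest in mutant mice M2 and M3, and Fhl1, Fhl2 and Smpx change sign between mice of 1 group.

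Csrp3, Ankrd23 and Smpx shared an order within the mutant group, with mice M2 and M3 above the other 4. Mouse M3 was the library with 38.9% of its reads in Rn45s, and Rn45s in mouse M2 was at 0.394%. With both mice left out, a choice made after these values were seen, 4 genes were still called higher. The log2 fold changes (edgeR) were then 1.72 for Ankrd1, 0.89 for Ankrd23 (adjusted p = 0.0320), 0.88 for Csrp3 and 0.80 for Lmcd1, and Ankrd2 no longer passed the expression filter.

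Levels of different genes were compared per kilobase of the longest annotated transcript, in CPM per kilobase. In control mice Ankrd1 stood first at 1277 ± 272 (SD, n = 4), followed by Smpx at 435 ± 27.9, Csrp3 at 417 ± 36.1, Fhl2 at 173 ± 74.1, Fhl1 at 74.5 ± 19.7, Ankrd23 at 19.0 ± 7.92, Lmcd1 at 5.44 ± 0.478 and Ankrd2 at 0.157 ± 0.314. The ranges over control mice overlapped for Smpx (396 to 457) and Csrp3 (372 to 460), and not for the other neighbours in this order. The 3 family members Ankrd1, Ankrd23 and Ankrd2 thus spanned the whole range from the first to the last of the 8. In mutant mice Ankrd1 was at 4353 ± 384 (SD, n = 6) and Csrp3 at 844 ± 129, and Csrp3 then lay above Smpx at 410 ± 50.1 in every mouse. Fhl2 at 126 ± 32.7 and Fhl1 at 94.3 ± 25.4 had overlapping ranges in the mutant mice. By the median transcript length instead, Csrp3 in control mice was at 1143 and Smpx at 739 CPM per kilobase, which exchanged their places.

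**Figure D3:**
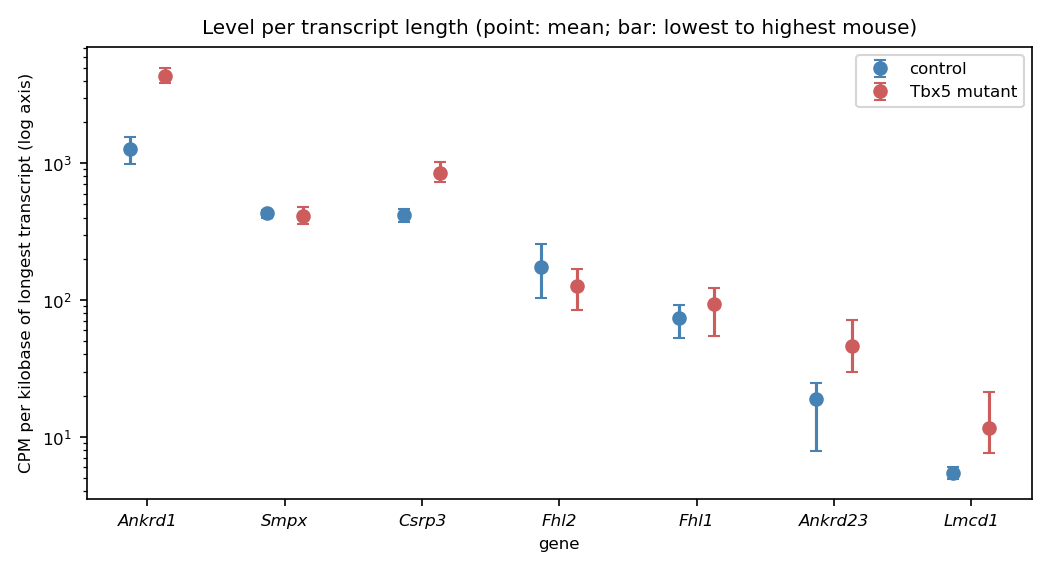
Level in CPM per kilobase of longest transcript (log axis) for 7 of the 8 genes, ordered by the control mean, with points for group means and bars from the lowest to the highest mouse (4 control, 6 Tbx5 mutant). Ankrd1 lies above all others in both groups, from 1277 in control to 4353 in mutant mice, and Ankrd2 is left out because most control mice had no reads.

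Mice of both labelled sexes were present in each group, and each labelled sex was also fitted alone. By Xist and Ddx3y, the control and mutant mice of each such fit were of opposite sex. Among mice labelled F and M, the log2 fold changes of Ankrd1 were 1.70 and 1.84, of Csrp3 0.77 and 1.25, of Lmcd1 0.66 and 1.44, and of Ankrd23 0.56 and 2.06, all with an edgeR adjusted p under 0.05. The value of Ankrd23 among mice labelled F was under the 1.5-fold threshold, so its call was lost there. Fhl2 was at -1.09 among mice labelled F (edgeR adjusted p = 0.00127) and at 0.35 among mice labelled M (adjusted p = 0.325). Fhl1 was at 0.74 among mice labelled F (edgeR adjusted p = 0.0132), past the thresholds, and at 0.014 among mice labelled M (adjusted p = 0.980). The interaction of genotype and labelled sex passed for 0.29% of all genes and for 0 of the 8 by edgeR (3 had an unadjusted p under 0.05), and for 1 by DESeq2, Fhl2.

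For Fhl2 the effect in mice labelled M minus that in mice labelled F was 1.44 on the log2 scale (SE 0.31, edgeR adjusted p = 0.0952), and 1.46 by DESeq2 (adjusted p = 0.00135). Without mutant mouse M2 the edgeR value was 1.66 (adjusted p = 0.0191). With the sex labels of the control mice exchanged, the arrangement that Xist and Ddx3y gave, it was -0.71 (edgeR unadjusted p = 0.0434, adjusted p = 0.549). In that arrangement 0 of the 8 genes passed, as against 0.00764% of all genes, and 1, Fhl2, had an unadjusted p under 0.05. The sign of the Fhl2 difference between sexes therefore rested on which sex label of the control mice was used.

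Related genes were counted in lists chosen by function with earlier results of these data known. Of 25 genes of the stretch and hypertrophy response, 23 were tested, and 14 were called higher and 2 lower. Over all genes tested, 8.5% were called higher and 7.16% lower. The median log2 fold change of the list was 0.84. The 5 largest increases were in Tnc (tenascin C, a matrix protein) from 2.80 ± 1.34 CPM (SD, n = 4) to 62.7 ± 33.4 CPM (SD, n = 6), a log2 fold change of 4.50, in Acta1 (skeletal alpha actin, 10 reads in all controls) at 4.07, in Postn (periostin) at 2.33, in Cyr61 (a matricellular target of YAP and TEAD) at 2.28 and in Edn1 (endothelin 1) at 1.97. All 5 had an edgeR adjusted p of at most 0.000154 and no overlap between groups. They were picked as the largest called increases, so these values follow in part from the choice. Over all genes tested, 11.7% were higher without overlap. Acta1 is counted among the 14 although it passed the expression filter only through its reads in mutant mice. Mybphl, an atrial myosin binding protein, fell by 1.46 on the log2 scale (edgeR adjusted p = 3.36e-05), and Nppa, the atrial natriuretic peptide, fell by 0.65 (edgeR adjusted p = 0.0426). The call of Nppa was lost without any 1 control mouse or without mutant mouse F1, F2, M1 or M2 (log2 fold changes of -0.69 to -0.55, adjusted p = 0.0544 to 0.0942), and in 14 of 27 alternative fits in all. Nppb, the B-type natriuretic peptide, rose from 419 ± 61.8 CPM (SD, n = 4) to 1087 ± 347 CPM (SD, n = 6), a log2 fold change of 1.38 (edgeR adjusted p = 0.000396).

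Of 21 tested genes of other proteins of the titin I-band and Z-disc, 1 was called higher and 3 lower. Over all genes tested, the shares were 8.5% and 7.16%. The median log2 fold change of the list was -0.16. With the trend on transcript length removed, 2 were called lower. Tcap (telethonin, which caps titin at the Z-disc) rose from 770 ± 182 CPM (SD, n = 4) to 1406 ± 232 CPM (SD, n = 6), a log2 fold change of 0.87 (edgeR adjusted p = 0.00197). Among those lower, Neb fell by 1.63 and Nebl by 0.99 on the log2 scale, with edgeR adjusted p of 0.00286 and 0.0183. These encode nebulin and nebulette, proteins of the thin filament and Z-disc. Titin itself (Ttn) had a log2 fold change of -0.67 (edgeR adjusted p = 0.146) and was not called.

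Among 29 other LIM domain genes tested, 5 were called higher and 3 lower, beside 8.5% and 7.16% of all genes tested. The median log2 fold change was 0.12. Higher were Fhl3 (above), Pdlim3 at a log2 fold change of 1.12, Pdlim1 at 0.73, Lmo4 at 0.68 and Zyx (zyxin, of focal adhesions) at 0.62. Fhl3 is counted among the 5 although it passed the expression filter only through mutant mice. Among those lower were Pdlim4 at -1.91 (edgeR adjusted p = 3.88e-08), from 59.4 ± 5.04 CPM (SD, n = 4) to 15.9 ± 1.84 CPM (SD, n = 6), and the actin binding gene Ablim3 at -0.82. Of 17 other ankyrin repeat genes of muscle, 1 was called higher (Asb2, a ubiquitin ligase subunit, at 0.75) and 3 lower (Asb14 at -1.40, Ankrd33b at -0.70 and Asb10 at -0.62), with a median of -0.18.

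Of 25 tested factors known to act upstream of stretch genes, 2 were called higher and 3 lower. These counts stand beside shares of 8.5% higher and 7.16% lower over all genes tested. The median log2 fold change of the list was -0.11. Myocd (myocardin, a coactivator of SRF) rose from 111 ± 11.3 CPM (SD, n = 4) to 197 ± 25.4 CPM (SD, n = 6), a log2 fold change of 0.83 (edgeR adjusted p = 0.000127), and Vgll3, a cofactor of TEAD, rose by 0.78 on the log2 scale (edgeR adjusted p = 0.00515). Tead1 fell by 0.75, Mef2a by 0.70 and Mef2d by 0.66 on the log2 scale, with edgeR adjusted p of 0.00867, 0.000414 and 0.000203. With the trend on transcript length removed, 0 of the 25 were called lower.

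**Figure D4:**
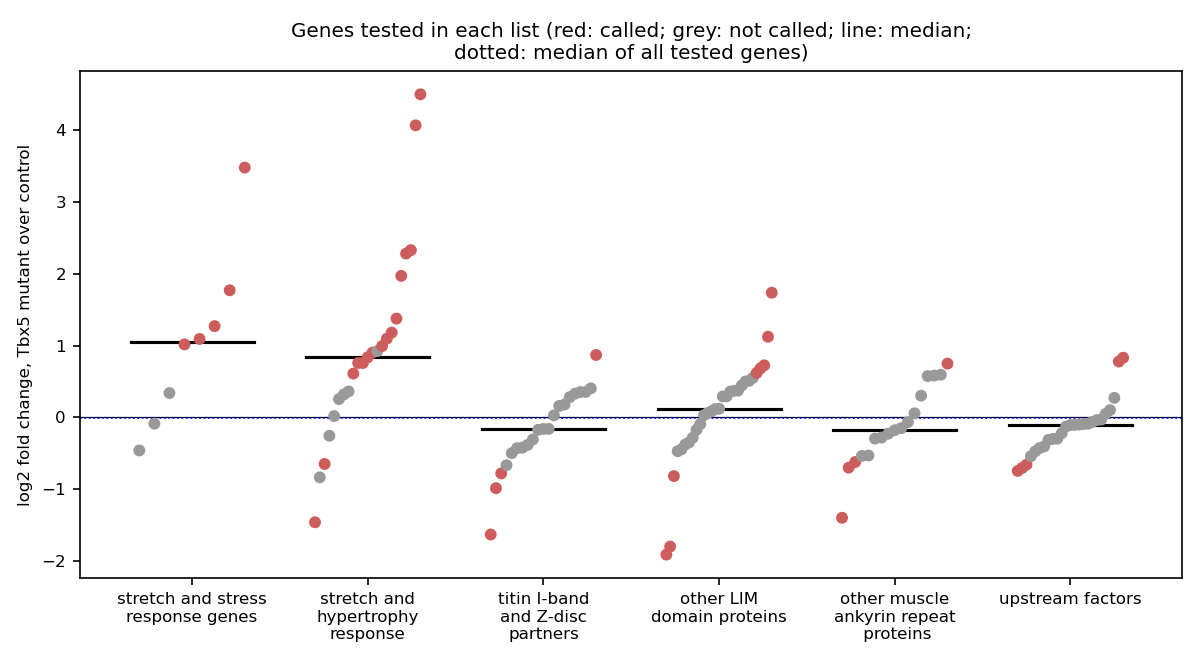
Log2 fold change of Tbx5 mutant over control (vertical axis) for each tested gene of the 8 genes and of 5 related lists, red where called and grey where not, with a line at each median. The 8 genes and the stretch and hypertrophy list have medians of 1.05 and 0.84, and the other lists have medians between -0.18 and 0.12.

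Some markers of cell types that the right atrium could hold also moved. Their counts stand beside 8.5% called higher and 7.16% lower over all genes tested. Leukocyte markers had a summed level of 66.6 to 88.2 CPM in control and 127 to 160 CPM in mutant mice, and all 4 tested (of 6) were called higher. Fibroblast markers went from 2650 to 3303 CPM to 3241 to 4467 CPM, with 2 of 6 called higher (Col1a1 and Col1a2), and smooth muscle markers from 195 to 254 CPM to 263 to 670 CPM, with 2 of 6 called higher (Acta2 and Tagln). Endothelial markers were at 895 to 1195 and 1030 to 1256 CPM, with 0 of 5 called by edgeR. Skeletal muscle markers, which would mark attached body wall muscle, were at 14.1 to 20.6 and 10.0 to 16.5 CPM, with no read of Myod1 in any library. Of 10 such markers, 3 were tested and 1 was called lower. The part of these cell types in the levels of the 8 genes was not tested.

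Cardiomyocyte markers were mixed. Tnnt2 and Actc1 rose by 1.12 and 0.90 on the log2 scale and Ryr2, the calcium release channel, fell by 1.65, with Tnni3 at 0.034 and not called. Of 5 atrial cardiomyocyte markers, 3 were called lower, beside 7.16% of all genes tested. They were Myl7, the atrial light chain, at a log2 fold change of -2.73, Sln at -0.98 and Nppa. Of 4 ventricular markers, 2 were tested. Myl2 was called higher at 2.10, whereas Myh7 was at 0.92 and not called (edgeR adjusted p = 0.208). Irx4 had at most 1 read in any library. Myl7, Sln and Nppa, the 3 atrial markers called lower, were in the control mice at 6372 ± 970, 1823 ± 244 and 26827 ± 1745 CPM (SD, n = 4). The other 2 atrial markers, Myl4 and Nr2f2, were not called.

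The genes whose levels ran most like those of each of the 8 over the 10 libraries were found by Pearson's correlation of log2 CPM, as a description in which the difference between groups takes part. For Ankrd1 this was Mybpc3, the cardiac myosin binding protein C (r = 0.986), which rose from 1750 to 4866 CPM, followed by 2210020M01Rik (r = 0.972). For Csrp3 they were Cfl2, the muscle cofilin (r = 0.991), and Hist1h3b (r = 0.986), and for Ankrd23 Pdia6 (r = 0.964) and Gstm2 (r = 0.961). For Lmcd1 they were Mcm5 (r = 0.977) and 2010002N04Rik (r = 0.965), and for Ankrd2 Urb2 (r = 0.932) and Ppp3cc (r = 0.930). For the genes that were not called they were Tmeff1 (r = 0.965) and Ssu72 (r = 0.942) for Fhl1, St3gal3 (r = 0.925) and Dcun1d2 (r = 0.893) for Fhl2, and Tmem188 (r = 0.965) and Tmem144 (r = 0.922) for Smpx. Each is the highest of all tested genes with a mean over 5 CPM, so that its size reflects the choice among many genes.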

How the data were processed

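RNA-seq of right atria from 10 mice was analysed from 1 table. The authors deposited counts of reads per gene and library, without normalization, and a signal, which is each count divided by a DESeq2 size factor per library. Per the labels, the submitters' processing notes name FastQC, TopHat2 2.0.11, featureCounts, DESeq2 and build mm10, and the gene annotation is not given in the sources used here. The labels describe both an mRNA kit and ribosomal RNA removal, and which one made these libraries is not known. The authors' own comparison was deposited too (mean signal, log2 fold change and its error, Wald score, p-value and linear ratio) and was not used. All 10 sample columns were mapped to labels.

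Counts were fitted with edgeR 4.0.16 in R 4.3.3 (expression filter, TMM scaling, quasi-likelihood test, prior count 0.125, no covariates) over all 10 libraries, and the thresholds are those of the study's methods for coding genes, applied to the authors' signal. The SE is the size of the fitted log2 change divided by root F, and the 95% intervals use the t distribution with the degrees of freedom of the fit. Exact permutation tests were two-sided, on log2(CPM + 1). P-values measure the spread between libraries. No library pair of 1 group agreed within sampling noise (chi-square per degree of freedom at least 3.78 over 21 pairs). A floor of 3 counts was between 4.23e-05% and 5.26e-05% of a library. This floor and the interval of pooled Ankrd2 reads cover counting error only.

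The 8 genes and the lists were chosen with earlier results of these data known. Besides the 8 genes, text names check genes, paralogs, at most 5 called genes per list and direction, list markers and, per gene, the 2 tested genes with a mean over 5 CPM of highest correlation. Other called genes of a list are counted only, and some are not reported here by name. Ttn, Tnni3, Irx4, Myh7 and Nppb were named after their values were seen. Transcript lengths (GENCODE M21) were found for 12950 of 13084 tested genes. Protein sequences were not used here. On simulated counts, made for control and mutant libraries, 200 of 12979 genes had a fold of 2, of which edgeR recovered 159 and made 7 other calls. Alternatives were another prior count, scaling, filter, threshold or tool (DESeq2 1.42.0, limma 3.58.1), sex terms, a replicate block, trend removal, left-out libraries and 1 labelled sex alone.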

Additional observations from a re-analysis of the deposited data

Results flagged for a closer look

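Of 28 groups of mice that were large enough to examine, 2 held a mouse that stood apart from the rest of its group, and about 1.4 such groups arise by chance. Ankrd2 in control mouse M1 was at 0.714 CPM (5 reads), with 0 reads in the other 3 control mice. In a group otherwise at 0, any reads in 1 mouse would be flagged. That flag is therefore not comparable with the number by chance. Lmcd1 in mutant mouse M2 was at 36.8 CPM, against 21.4 CPM in the next highest mutant mouse. Without mutant mouse M2, Lmcd1 was still called higher.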

How the results depend on the processing

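Ankrd1, Ankrd23, Csrp3 and Lmcd1 kept their direction and an adjusted p under 0.05 in all 27 alternative fits. Ankrd2 could be fitted in 21, where its adjusted p reached 0.183, because it failed the filter at a mean count of at least 50 or without mutant mouse F1, F3, M2 or M3. Between 4 and 5 of the 8 genes were called higher in every alternative, and 1 was called lower among mice labelled F alone (Fhl2). Among mice labelled F alone, Ankrd23 was under the fold threshold and Fhl1 was called in its place. The control signal was averaged over all 4 control mice throughout, and Ankrd2 would not pass it among mice labelled F alone or without control mouse M1. Among mice labelled M alone, the log2 fold changes of Fhl2 and Smpx turned to 0.35 and 0.036. The interaction with labelled sex passed for 1 gene by DESeq2 and 0 to 1 when a mutant mouse was left out (1 without M2), and no control was left out there. Ankrd2 had at most 34 reads in a library.

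At a fold change over 2, all genes called higher were 539 and lower 367, and without a fold threshold 2129 and 1967. At a mean count of at least 50, 653 were called higher. Leaving out 1 mouse gave 983 to 1169 higher and 824 to 1076 lower. For the stretch and hypertrophy list, 8 were higher at a fold over 2, and 1 was lower with upper-quartile scaling, in either labelled sex alone, at an adjusted p under 0.01 or at a fold over 2, and 1 to 2 with a mouse left out (1 without any control mouse or without mutant F2 or M2). For titin I-band and Z-disc genes, 2 were higher in mice labelled M, 0 with the replicate block and the length trend removed, 0 at a fold over 2 and 4 without a fold threshold, and lower were 1 at a fold over 2 and 6 without a threshold. For other LIM genes, 2 were higher in mice labelled M, 8 in mice labelled F, 2 at a fold over 2 and 10 without a fold threshold, and 5 were lower without it. For other ankyrin repeat genes, 3 were higher with exchanged control sex labels as a covariate, 3 in mice labelled M, 0 at a fold over 2, 2 without a fold threshold and 1 to 2 with a mouse left out (2 without mutant M1), and lower were 5 in mice labelled F, 1 at a fold over 2 and 5 without a threshold. For upstream factors, 0 were higher at a fold over 2, and lower were 0 with the length trend removed, 0 with the replicate block as well, 0 at a fold over 2 and 9 without a threshold. Beyond the thresholds' own construction, the cause was not tested.

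By median transcript length, control levels were 28.4 CPM per kilobase for Ankrd23, 1143 for Csrp3, 162 for Fhl1 and 739 for Smpx. Log2 fold change fell with transcript length (Spearman -0.32 over 12950 genes, which are not independent), and 0.0065 once the trend was removed. Same-numbered mice of the 2 groups did not deviate together (mean correlation 0.018 over 4 pairs, -0.0038 over 20 other pairs). Numbers were therefore not treated as pairs. With the replicate block, 5 of the 8 genes were called higher (4 with the length trend removed as well), and all genes called higher were 1054 and lower 903.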
